A study of Mus musculus with 6 samples.

Results

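Keratins are the proteins of the intermediate filaments of epithelial cells, and their genes were described here in lymphatic endothelial cells (LECs) taken from tumours and from healthy skin. Members were all genes whose single symbol in the platform annotation is Krt followed directly by a digit, which excludes keratin-associated protein genes, with 1 further keratin gene not reported here. This gave 47 genes with 60 probe sets, out of 18193 genes and 45037 tested probe sets. The study hybridised 6 mouse Affymetrix arrays, 1 per sample, to ask how LECs associated with a tumour differ from normal ones. The first group was 3 samples of LECs from xenografts of the human line MDA-MB-435, cut out 8 weeks after injection under the skin. The second was 3 samples of LECs from mammary skin without a tumour, here called healthy skin, whose donors were balb-c/nude mice. The labels do not name the strain that carried the tumours. Nude mice lack functional Foxn1, so they have no thymus and few T cells, and their hair shafts are malformed. In both groups, sections were briefly stained for LYVE-1 and the cells were captured by laser microdissection, so neighbouring cells could enter a sample. RNA passed through 1 round of Ribo-SPIA amplification. The samples are called biological replicates with no animal named, and p-values therefore measure the spread between these samples only.

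A keratin filament is built from pairs of a type I and a type II keratin, and the pair in use marks the kind and the stage of an epithelial cell. In the epidermis, Krt5 and Krt14 pair in the dividing basal layer, and Krt1 and Krt10 replace them when cells move into the suprabasal layers. Krt8 and Krt18 pair in simple epithelia, and a large set of keratins builds the hair shaft and its sheaths. Endothelial cells typically carry vimentin filaments instead. In samples of tissue, fewer cells of a type and less RNA per cell cannot be told apart.

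The promoters of 4 keratins are shown because Krt10 and Krt77 had the widest differences between the groups, Krt5 stands for the basal layer and Krt71 for the hair sheath. Each is the 150 bases before the annotated start in RefSeq, build GRCm38.p6, minus strand, written 5′ to 3′, and capitals mark TATAAA, the core of a TATA box. The windows are chr11:99389365-99389514 for Krt10, chr15:101869706-101869855 for Krt77, chr15:101712906-101713055 for Krt5 and chr15:101743098-101743247 for Krt71.
Krt10: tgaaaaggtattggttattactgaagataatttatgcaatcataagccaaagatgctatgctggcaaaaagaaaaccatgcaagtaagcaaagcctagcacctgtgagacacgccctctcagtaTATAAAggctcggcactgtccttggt
Krt77: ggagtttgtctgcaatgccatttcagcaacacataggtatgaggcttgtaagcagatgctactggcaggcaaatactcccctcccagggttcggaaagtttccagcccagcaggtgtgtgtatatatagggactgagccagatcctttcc
Krt5: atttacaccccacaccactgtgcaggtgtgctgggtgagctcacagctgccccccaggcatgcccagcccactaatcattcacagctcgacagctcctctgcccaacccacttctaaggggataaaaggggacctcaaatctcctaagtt
Krt71: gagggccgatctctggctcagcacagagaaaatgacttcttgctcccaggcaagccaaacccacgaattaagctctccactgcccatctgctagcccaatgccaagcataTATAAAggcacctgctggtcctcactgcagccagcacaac

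TATAAA begins 26 bases before the start of Krt10 and 40 bases before that of Krt71. Within 250 bases before the start and on either strand, it was present in 16 of the 31 member promoters that the RefSeq table holds, and in 13% of all 27025 promoters. Among hair keratins 12 of 15 promoters held it, against 1 of 5 suprabasal and 0 of 2 basal ones. The basal ones were Krt5 and Krt14, and the Krt14 window lies inside the annotated gene. Only the exact letters were counted, so the tatatata of the Krt77 window was not. The AP-1 letters TGANTCA were in 1 of the 31 member promoters and in 6.87% of all promoters. The AP-2 letters GCCNNNGGC were in 3 of the 31 and in 13.6% of all. These motifs do not overlap one another in the 4 windows shown, where the AP-1 and AP-2 letters do not occur. These are matches of letters and show nothing of binding.

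Signals are given as log2 of the deposited values, and an array's background is the level under which 95% of its 27 bacterial control probe sets fell. It lay between 3.42 and 3.91 in the tumour arrays and between 2.96 and 3.81 in the healthy-skin arrays. Tumour replicate 3 had the highest background and the fewest probe sets above it (39.6%), against 48.4% and 46.6% in the other tumour arrays and 41.7% to 56.0% in healthy skin. Control signal at the 3′ minus the 5′ end of Gapdh was 2.15, 4.10 and 2.29 in tumour replicates 1, 2 and 3. In healthy-skin replicates 1, 2 and 3 it was 3.72, 3.23 and 2.77. The same measure for actin lay between -0.63 and 0.60 over all 6 arrays. The defining LEC genes Prox1, Pdpn and Flt4 were above background on all 6 arrays, and so was the endothelial gene Pecam1, while Lyve1 was so on all except healthy-skin replicate 1 (3.21). All 10 measured LEC genes of a list of 11 were above background in each tumour array, and 9 or 10 in each healthy-skin array.

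Of the 7 suprabasal keratins, Krt10, Krt77 and Krt1 had a lower signal in tumour LECs than in healthy-skin LECs, while basal keratins varied widely between tumour samples and most other keratins overlapped between the groups. Krt10 and Krt77 were 30.1 and 9.21 times lower in tumour LECs, and Krt1 was below background on 2 of 3 tumour arrays, with values of all 3 genes that did not overlap between the groups. In tumour LECs, Krt77 on every array and Krt10 in replicates 2 and 3 lay close to background, which limits these folds. No keratin passed the threshold of 0.05 after Benjamini-Hochberg adjustment over all probe sets in limma, a test that called 0.0055% of all genes and 0.00444% of all probe sets. At an unadjusted limma p under 0.05, 3 of 47 keratins were lower (6.38%), against 4.28% of all genes, and 0 were higher, against 3.22%. Of the 60 keratin probe sets 4 had such a p in either direction (6.67%), against 6.36% of all probe sets. The groups did not overlap for 4 keratins that were lower (8.51%), against 5.36% of all genes, and for 1 that was higher (2.13%), against 6.58%. As a family, the keratins thus stood near the shares over all genes. The median difference over the 47 genes, tumour minus healthy skin, was 0.05, against 0.08 over all genes, with 21 negative and 26 positive.

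**Figure D1:**
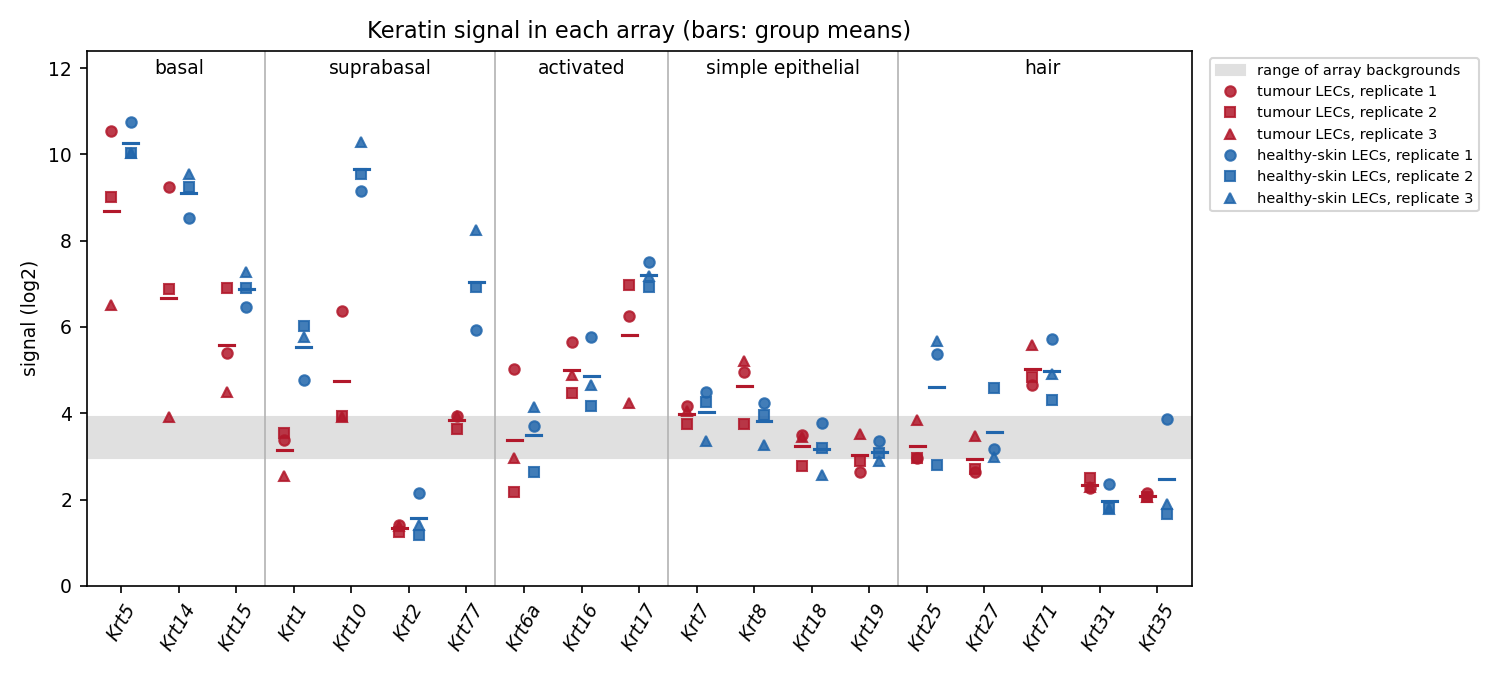
Signal (log2, vertical axis) of 19 keratins in each array, tumour LECs in red to the left of healthy-skin LECs in blue, with symbols for replicates, short bars for group means and a grey band for the range of array backgrounds. Krt10 lies at 3.92 to 6.37 in tumour LECs and at 9.14 to 10.28 in healthy skin, whereas 1 tumour array of Krt5 (10.53) lies within the healthy-skin range.

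Among the suprabasal keratins, Krt10, the type I keratin of differentiating keratinocytes, had 6.37, 3.94 and 3.92 in tumour replicates 1, 2 and 3, against 9.14, 9.55 and 10.28 in healthy-skin replicates 1, 2 and 3. Every tumour array was below every healthy-skin array, and tumour replicate 3 was at its background of 3.91. The difference was -4.91 with a standard error of 0.71 (unadjusted p = 0.000264, limma adjusted p = 0.22), and without tumour replicate 1 it was -5.72. Krt1, its type II partner, had 3.38, 3.54 and 2.55 in tumour LECs, against 4.78, 6.03 and 5.78 in healthy skin. It was above background in 1 of 3 tumour arrays and in 3 of 3 healthy-skin arrays, so that its difference of -2.37 (standard error 0.45, limma adjusted p = 0.367) is limited by the background. Krt77, a type II keratin of the mouse suprabasal epidermis, had 3.93, 3.63 and 3.95 in tumour LECs, against 5.92, 6.93 and 8.26 in healthy skin. Its tumour values lay close together just above background, while the healthy-skin values spread over more than 2 log2 units (difference -3.20, standard error 0.58, limma adjusted p = 0.329), and without healthy-skin replicate 3 the difference was -2.59.

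The other 4 measured suprabasal keratins did not show this difference. Krt2, a keratin of the upper epidermal layers, was below background on all 6 arrays, with 1.41, 1.25 and 1.38 in tumour LECs and 2.15, 1.19 and 1.40 in healthy skin. Krt78, another type II keratin of differentiated epidermis, was above background on all 6 arrays and differed by 0.32, with groups that overlapped. Krt24 differed by 0.24 and Krt80 by 0.01. Over the 7 suprabasal keratins the median difference was -0.23, which became 0.05 without healthy-skin replicate 1. At an unadjusted limma p under 0.05, 3 of 7 were lower (42.9%, against 4.28% of all genes) and 0 higher (against 3.22%). Each gene of this class was read by a single probe set, so Krt1, Krt10 and Krt77 have no other probe set to set beside them.

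The basal keratins were lower on average in tumour LECs, but by less than the spread between tumour arrays could resolve. Krt5 had 10.53, 9.02 and 6.50 in tumour LECs, against 10.74, 10.02 and 10.02 in healthy skin. Tumour replicate 1 lay within the healthy-skin range and replicate 3 far below it (8.68 ± 2.03 in tumour LECs and 10.26 ± 0.41 in healthy skin, SD, n = 3). The difference was -1.58, with a 95% limma interval from -3.84 to 0.68 and an adjusted p of 0.866. Krt14, the type I partner of Krt5, had 9.23, 6.89 and 3.92 in tumour LECs, against 8.52, 9.23 and 9.54 in healthy skin. Here too tumour replicate 1 was inside the healthy-skin range and replicate 3 was at its background (difference -2.41, interval from -5.32 to 0.49, limma adjusted p = 0.843). A second probe set of Krt14 differed by -1.60 with the same arrays highest and lowest among the tumour samples, and the remaining one was below background on every array (0.17). Krt15, a type I keratin of the basal layer and the hair follicle bulge, had 5.39, 6.90 and 4.48 in tumour LECs, against 6.47, 6.90 and 7.28 in healthy skin. For Krt15 tumour replicate 2 was the one inside the healthy-skin range (difference -1.30, limma adjusted p = 0.822). All 3 basal keratins were above background on all 6 arrays, and tumour replicate 3 was the lowest of the 6 for each. These values rest on single arrays: without tumour replicate 1 Krt5 differed by -2.50 and Krt14 by -3.69, each with an unadjusted limma p under 0.05. Without tumour replicate 2 Krt15 differed by -1.95, again with an unadjusted limma p under 0.05. Without tumour replicate 3 the differences shrank to -0.49 for Krt5, -1.04 for Krt14 and -0.74 for Krt15, none with an unadjusted limma p under 0.05.

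With the mean of the healthy-skin arrays taken as 0, the basal class averaged -0.36, -1.15 and -3.78 in tumour replicates 1, 2 and 3, against -0.17, -0.03 and 0.20 in healthy-skin replicates 1, 2 and 3. The suprabasal class averaged -1.04, -1.76 and -1.55 in the tumour arrays, against -0.16, -0.09 and 0.25 in healthy skin. In tumour replicate 1, Krt5 and Krt14 were thus inside the healthy-skin range while Krt15, Krt10, Krt77 and Krt1 were below it. To set the layers against each other within an array, signals of a suprabasal and a basal keratin were subtracted, where only the difference between arrays has a meaning. Krt10 minus Krt14 was -2.87, -2.94 and 0.00 in tumour LECs, against 0.63, 0.31 and 0.74 in healthy skin. All tumour values were lower (exact permutation p = 0.1, two-sided, the smallest that 3 against 3 arrays can give, and 0.3 after adjustment over 3 such pairs), and in tumour replicate 3 both genes were at background. Krt1 minus Krt5 was -7.15, -5.47 and -3.96 in tumour LECs, against -5.96, -3.99 and -4.24 in healthy skin, with groups that overlapped (exact permutation p = 0.7, adjusted 0.7). Krt77 minus Krt5 differed by -1.62 (exact permutation p = 0.3, adjusted 0.45). In tumour LECs Krt1 was above background on 1 of 3 arrays and Krt77 lay just above it, so these subtractions there mostly follow Krt5. A drop of Krt1 or Krt77 beyond background could not have been seen. Of the 3 pairs, Krt10 and Krt14 were the one without overlap, at a p that this design cannot bring under 0.05. The overlap of the other pairs therefore sets no contrast with it.

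**Figure D2:**
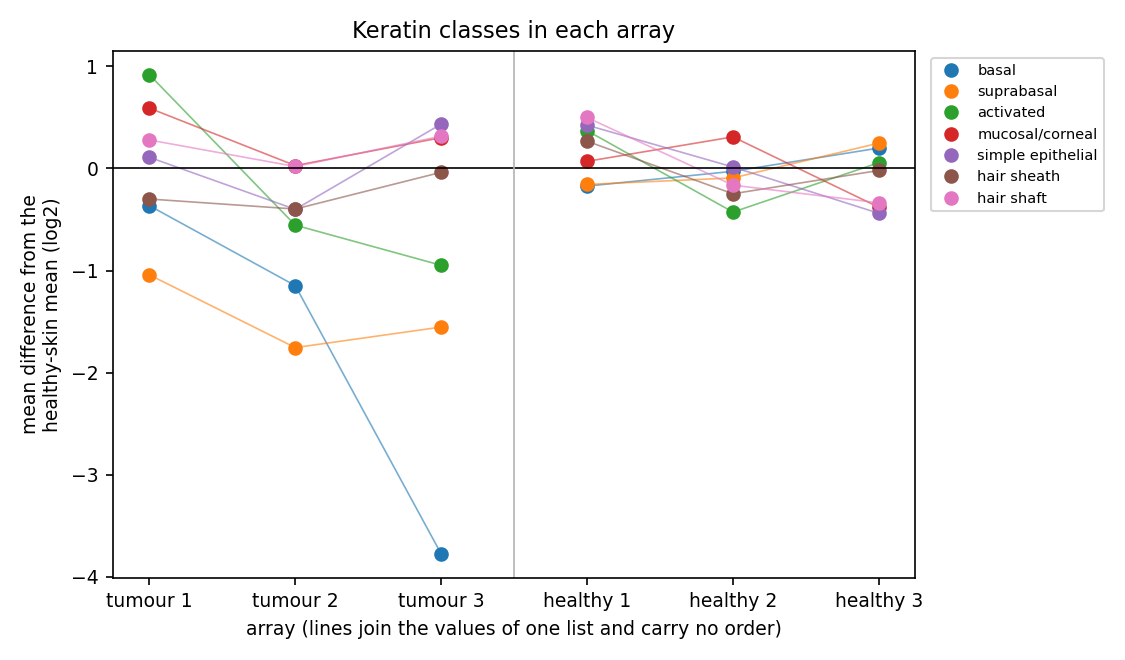
Mean difference from the healthy-skin mean (log2, vertical axis) of the genes of each keratin class in the 3 tumour and the 3 healthy-skin arrays, with a colour for each class. The basal class reaches -3.78 in tumour replicate 3 but -0.36 in replicate 1, whereas the suprabasal class lies between -1.76 and -1.04 in all 3 tumour arrays.

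The activated keratins are made in wounds and in the outer sheath of the hair follicle. Krt17, a type I keratin of the follicle, had 6.26, 6.97 and 4.24 in tumour LECs, against 7.51, 6.92 and 7.17 in healthy skin. Tumour replicate 2 lay inside the healthy-skin range and replicate 3 was again the lowest (difference -1.38, interval from -3.00 to 0.25, limma adjusted p = 0.836), and it differed by -1.95 without replicate 2, with an unadjusted limma p under 0.05, but by -0.59 without replicate 3. Krt16 had 5.66, 4.48 and 4.90 in tumour LECs, against 5.76, 4.17 and 4.67 in healthy skin, with nearly the same range in both groups (difference 0.15). Krt6a, which pairs with these type I keratins, had 5.03, 2.18 and 2.96 in tumour LECs, against 3.70, 2.64 and 4.15 in healthy skin. Its 3 probe sets differed by between -0.10 and -0.03, and tumour replicate 1 was the highest array on each of them. Krt6b, its near copy, differed by 0.55 and was above background in tumour replicate 1 only, of all 6 arrays. Probe sets of such close copies may bind both transcripts, so Krt6a and Krt6b cannot be fully separated.

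Among keratins of simple epithelia, which line ducts and glands, Krt8 was the one with the largest difference. Its representative probe set had 4.96, 3.76 and 5.21 in tumour LECs, against 4.24, 3.96 and 3.27 in healthy skin, with groups that overlapped (difference 0.82, interval from -0.30 to 1.95, limma adjusted p = 0.862). Another Krt8 probe set had 4.22, 3.81 and 4.60 in tumour LECs, against 3.46, 3.48 and 3.09 in healthy skin, without overlap (difference 0.87, limma adjusted p = 0.721), and was the keratin probe set that was higher at an unadjusted limma p under 0.05. The remaining one differed by 0.50, so all 3 pointed the same way at signals close to background, and without tumour replicate 2 the representative one differed by 1.27, with an unadjusted limma p under 0.05, and without tumour replicate 3 by 0.54. Krt18, the partner of Krt8, had 3.50, 2.78 and 3.45 in tumour LECs, against 3.77, 3.20 and 2.58 in healthy skin, and was above background on 1 tumour array and 0 healthy-skin arrays. Krt7, a type II keratin of ducts, differed by -0.05 with 4.16, 3.76 and 4.05 in tumour LECs, against 4.49, 4.26 and 3.37 in healthy skin. Krt19, a type I keratin of ducts and of follicle stem cells, was below background on every array and differed by -0.09. Over the 6 simple keratins the median difference was -0.06. In either direction, 0 of 6 had an unadjusted limma p under 0.05, against 4.28% of all genes lower and 3.22% higher.

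Hair keratins gave little signal that differed between the groups. Of the 8 measured keratins of the follicle sheaths, 3 were above background on all 6 arrays and 2 on none, and their median difference was -0.06. Krt25, a type I keratin of the inner root sheath, had 2.96, 2.95 and 3.85 in tumour LECs, against 5.37, 2.81 and 5.68 in healthy skin. It was above background in 0 of 3 tumour arrays and in 2 of 3 healthy-skin arrays, which gives a signal at least 2.03 times lower in tumour LECs when these are set at their background (limma adjusted p = 0.861 for the measured difference of -1.36). This bound rests on single arrays: without healthy-skin replicate 2 it was 3.80 times, with a measured difference of -2.27 and an unadjusted limma p under 0.05, and without healthy-skin replicate 3 it was 1.41 times. Krt27, its neighbour in the same sheath, had 2.63, 2.72 and 3.46 in tumour LECs, against 3.18, 4.58 and 2.98 in healthy skin, and was likewise above background on healthy-skin arrays only, 2 of 3. Of these, healthy-skin replicate 3 was at its background of 2.96. Tumour replicate 3 read higher than that array but below its own background of 3.91. Krt71, the type II keratin of that sheath, differed by 0.05 with 4.65, 4.85 and 5.59 in tumour LECs, against 5.71, 4.31 and 4.91 in healthy skin. Krt75, a keratin of the companion layer, was below background on all arrays, although its groups did not overlap (difference -0.41).

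Of the 12 measured hair shaft keratins, 9 had positive and 3 negative differences, between -0.38 and 0.61, with a median of 0.24. Krt86, a type II keratin of the shaft, was the only keratin whose representative probe set was higher in every tumour array, with 3.12, 3.77 and 3.25 in tumour LECs, against 2.78, 2.83 and 2.71 in healthy skin. It was above background on 1 of 3 tumour arrays and 0 of 3 healthy-skin arrays, and its difference of 0.61 had a limma adjusted p of 0.816. Krt31 (2.26, 2.50 and 2.28 in tumour LECs, against 2.35, 1.80 and 1.78 in healthy skin) was below background throughout. Krt35 was above background in healthy-skin replicate 1 alone (3.87). The keratins of mucosa and cornea, Krt4, Krt12, Krt13 and Krt76, differed by between 0.10 and 0.54, and 1 of the 4 was above background on all 6 arrays. The remaining members, Krt42, Krt88 and Krt222, differed by between 0.05 and 0.69. In all, 21 of 47 keratins (44.7%) were above background on all 6 arrays and 8 on none, against 42.8% of all genes on all 6.

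**Figure D3:**
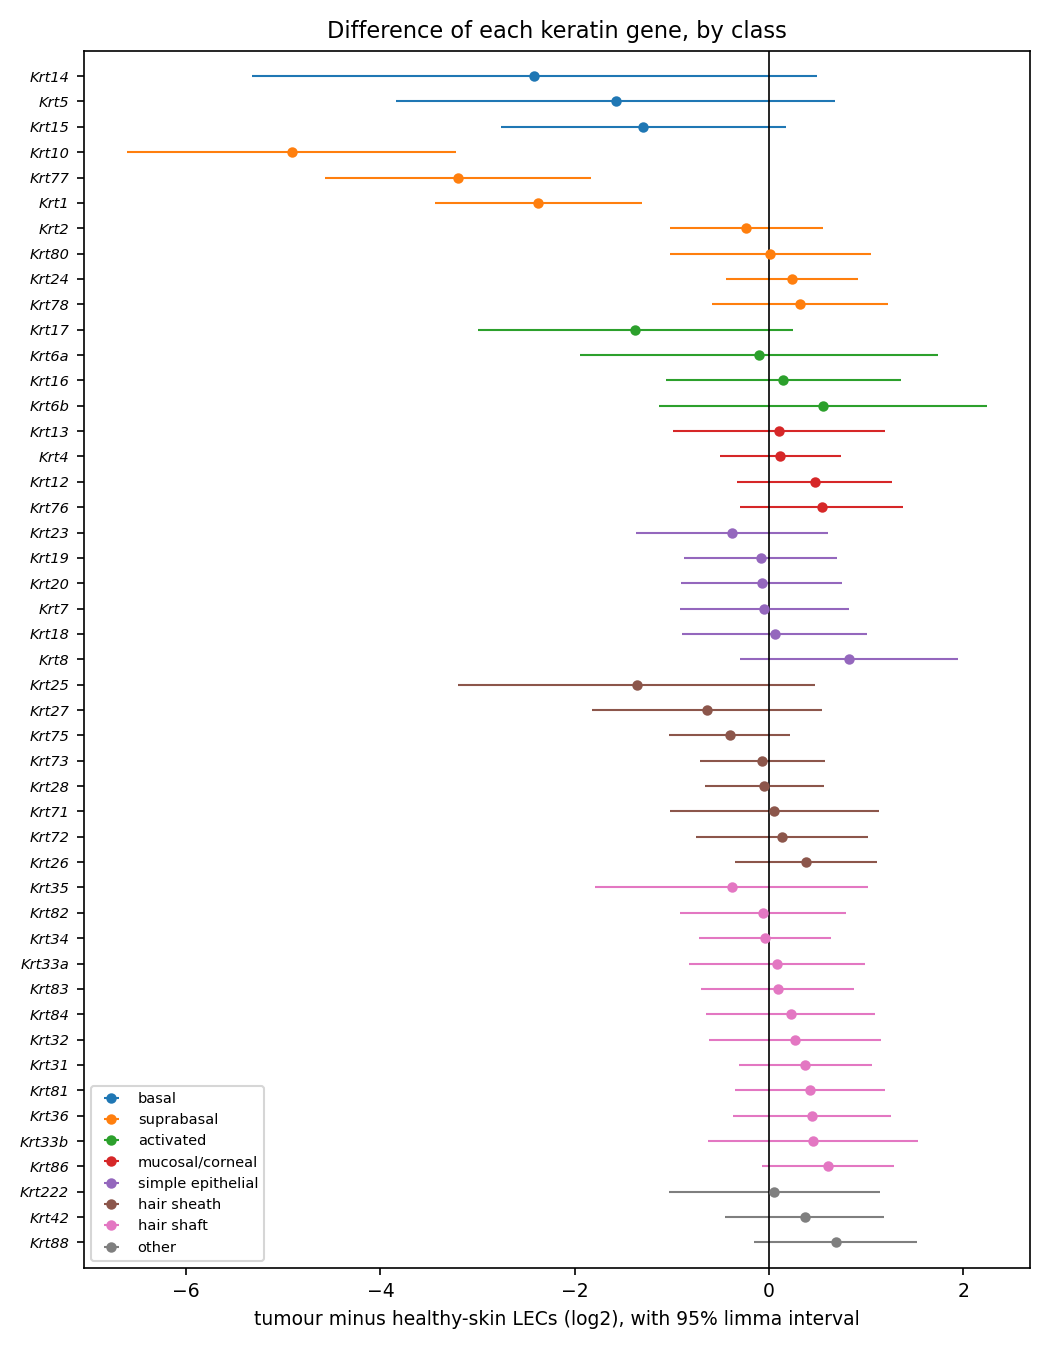
Difference of each of the 47 keratin genes (log2, tumour minus healthy-skin LECs, horizontal axis) with its 95% limma interval before adjustment, ordered and coloured by class. The intervals of Krt10, Krt77 and Krt1 lie wholly below 0, and those of all other keratins include 0.

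Keratin genes lie in a type I cluster and a type II cluster, with Krt18 of type I at the edge of the latter. The array measured 24 keratins on chromosome 11 and 23 on chromosome 15, in RefSeq for GRCm38.p6, whose median differences were 0.01 and 0.06. Krt1 and Krt77 are direct neighbours on chromosome 15 and differed by -2.37 and -3.20, but the genes on either side of them, Krt2 and Krt76, differed by -0.23 and 0.54. On chromosome 11 the neighbours of Krt10, Krt28 and Krt12, differed by -0.05 and 0.47. Krt2 and Krt76 were below background on all 6 arrays, and Krt28 and Krt12 each on all except 1, so a lower tumour signal of these neighbours could not have been seen.

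**Figure D4:**
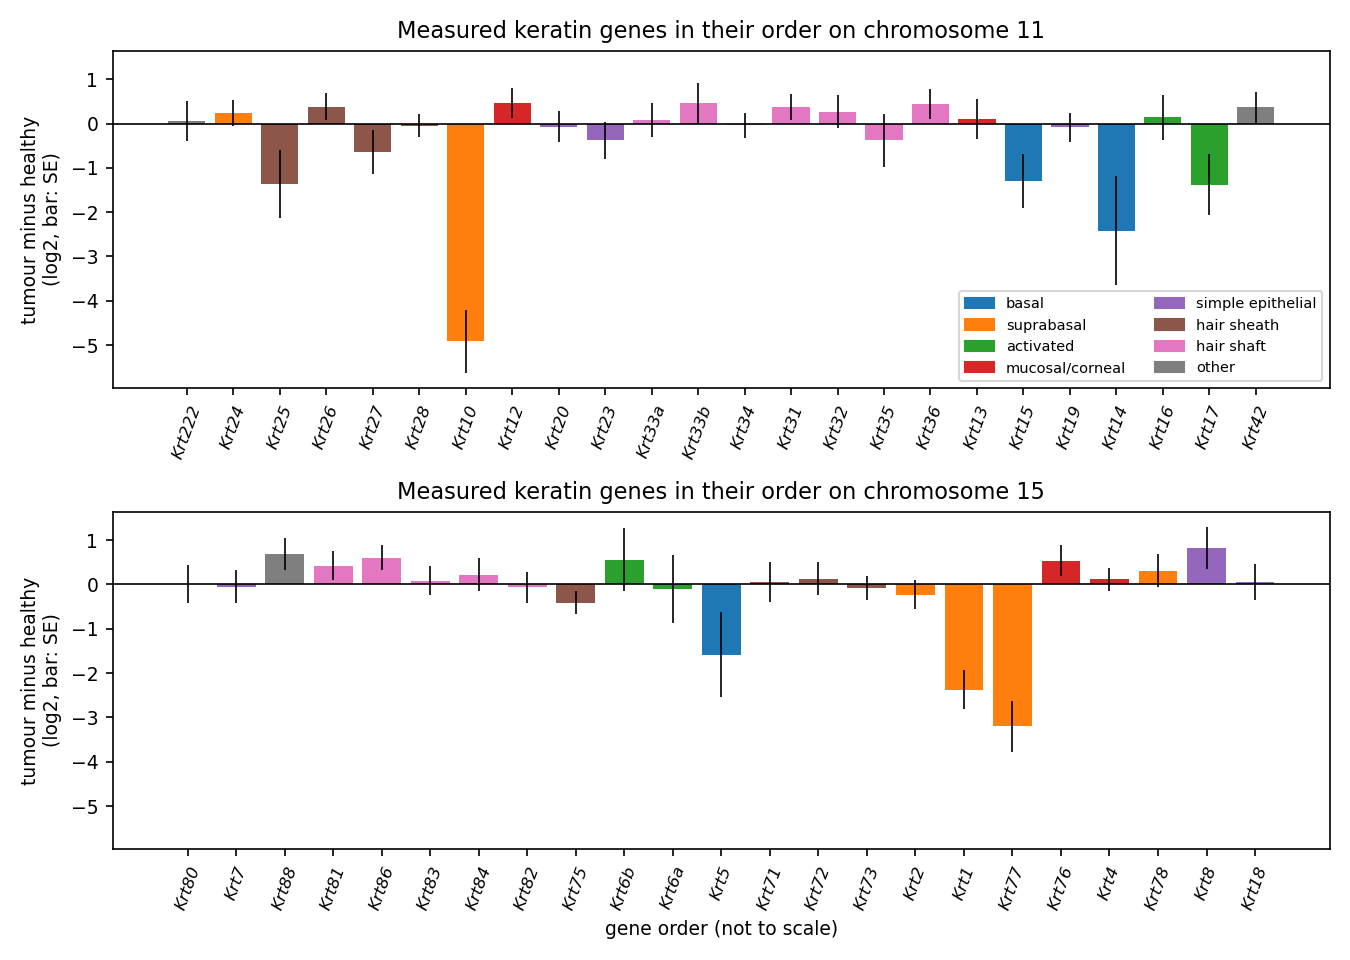
Difference of each measured keratin (log2, tumour minus healthy-skin LECs, bars, with black lines for the standard error) in the order of the genes on chromosomes 11 and 15, not to scale and coloured by class. Krt10 (-4.91) stands between neighbours at -0.05 and 0.47, and Krt1 and Krt77 stand side by side.

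Genes whose products work with keratins were counted beside them. Desmosomes are the junctions that anchor keratin filaments between cells. Of 13 measured desmosome genes 10 had negative differences, 4 were lower at an unadjusted limma p under 0.05 (30.8%, against 4.28% of all genes), and the median difference was -1.05. Dsp, which encodes desmoplakin, the linker that binds keratins, had 9.70, 9.25 and 6.08 in tumour LECs, against 12.26, 10.65 and 11.07 in healthy skin, without overlap (limma adjusted p = 0.688). Pkp1, the plakophilin of the suprabasal epidermis, averaged 5.29 ± 0.67 in tumour LECs and 7.48 ± 0.99 in healthy skin (SD, n = 3, limma adjusted p = 0.583). Dsg1a and Dsg1b, desmosomal cadherins, differed by -1.80 and -1.18, but Dsg1b was below background on all arrays and Dsg1a on all except 1. Hemidesmosomes, which anchor basal keratins to the basement membrane, had a median difference of 0.24 over 8 genes. Of these, 0 of 8 had an unadjusted limma p under 0.05, against 4.28% of all genes lower and 3.22% higher. The plakin Dst differed by -1.61, whereas Cd151, Itgb4 and Lama3 differed by 1.85, 0.70 and 1.26. Endothelial cells also express Cd151 and Dst.

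The cornified envelope is the protein shell that forms around suprabasal keratin bundles. Of its 19 measured genes 14 had negative differences, 7 were lower at an unadjusted limma p under 0.05 (36.8%, against 4.28% of all genes), and the median difference was -0.81. The groups did not overlap for 9 of these genes that were lower (47.4%, against 5.36% of all genes) and for 1 that was higher (5.26%, against 6.58%). The higher one was Evpl, which encodes envoplakin (difference 0.25). Sbsn, a secreted protein of the suprabasal layers, had 4.52, 5.23 and 5.14 in tumour LECs, against 8.52, 8.94 and 8.19 in healthy skin (difference -3.59, limma adjusted p = 0.0541). Calml3, a calmodulin-like protein of epithelia, differed by -2.62 (limma adjusted p = 0.172), Krtdap by -2.69 (limma adjusted p = 0.312), and Lor, the envelope protein loricrin, by -3.34 (limma adjusted p = 0.368). Background limits the first 2: Calml3 was above it on 0 of 3 tumour arrays (at least 3.18 times lower) and Krtdap on 1 of 3. With the mean of the healthy-skin arrays taken as 0, the 19 genes together averaged -1.11, -1.28 and -1.02 in the tumour arrays, against -0.20, -0.07 and 0.27 in healthy skin. Their average was thus low in all 3 tumour arrays, whereas that of the desmosome genes (-0.88, -0.65 and -1.79) was lowest in replicate 3. Hemidesmosome genes spread from 1.28 in tumour replicate 1 to -0.88 in replicate 3.

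Among 18 transcription factors of keratinocytes and hair, 10 had negative differences, with 4 lower (22.2%, against 4.28% of all genes) and 1 higher (5.56%, against 3.22%) at an unadjusted limma p under 0.05. Trp63, the factor that sets basal keratinocyte identity, had 5.96, 5.68 and 4.32 in tumour LECs, against 6.73, 6.15 and 7.30 in healthy skin, without overlap (difference -1.41, limma adjusted p = 0.73). Tfap2c, an AP-2 factor of epidermis, had 6.75, 7.06 and 1.92 in tumour LECs, against 8.98, 8.99 and 8.34 in healthy skin (difference -3.53, limma adjusted p = 0.729). Its value in tumour replicate 3 was below background. Cebpa, a factor of keratinocyte and fat cell differentiation, differed by -2.79 (limma adjusted p = 0.642). Hoxc13, which drives hair shaft keratins, differed by 0.82 but was below background on all 6 arrays. Foxn1, named because the healthy-skin donors were nude mice, differed by 0.20, which says nothing of the allele. Of 8 other intermediate filament genes 1 was higher (12.5%, against 3.22% of all genes) and 0 lower (against 4.28%) at an unadjusted limma p under 0.05. The higher one was Vim, the vimentin of endothelial and other mesenchymal cells (difference 0.85, limma adjusted p = 0.69). Vim had 12.16, 11.89 and 11.90 in tumour LECs, against 10.83, 11.23 and 11.35 in healthy skin. Synm, Lmna and Nes differed by 0.52, -0.48 and 0.23.

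**Figure D5:**
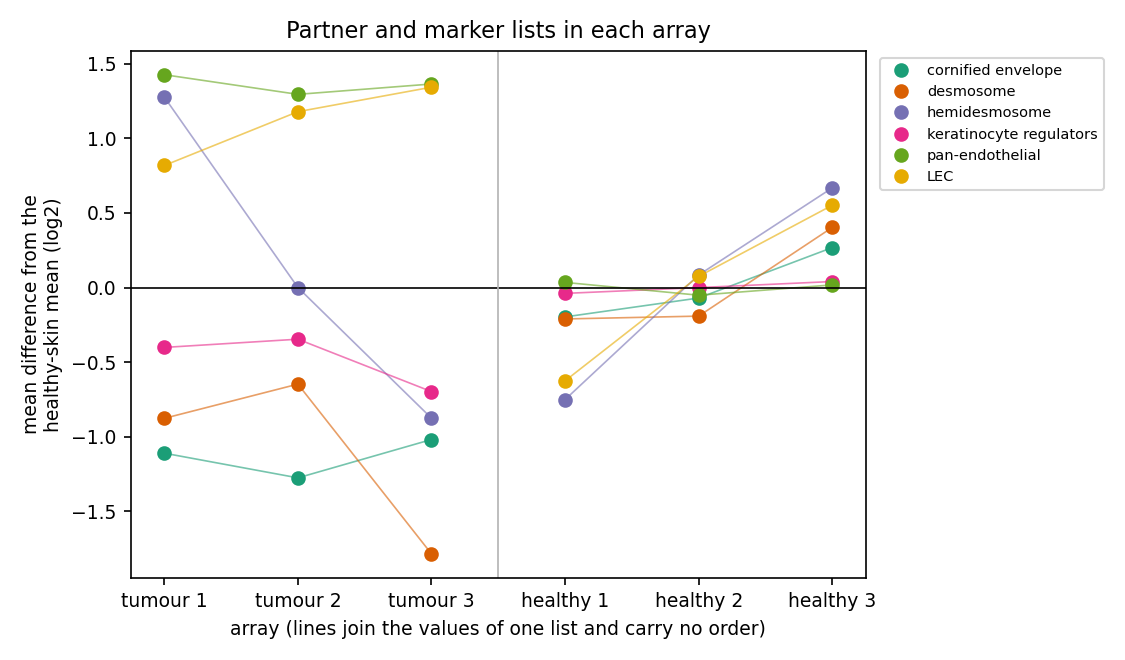
Mean difference from the healthy-skin mean (log2, vertical axis) of lists of genes in the 3 tumour and the 3 healthy-skin arrays, with a colour for each list. Cornified envelope genes lie between -1.28 and -1.02 in the tumour arrays, and the pan-endothelial list between 1.30 and 1.43.

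Markers of other cells moved between the same arrays, and their part in the keratin values was not tested. The 13 pan-endothelial genes averaged 1.43, 1.30 and 1.37 above the healthy-skin mean in the tumour arrays, with a summed linear signal of 1136 to 1231 in tumour LECs, against 431.1 to 478.9 in healthy skin. The LEC genes summed to 2574 to 3135 in tumour LECs, against 776.5 to 1621 in healthy skin. The keratins themselves summed to 3194, 1525 and 1067 in tumour replicates 1, 2 and 3, against 3922, 3456 and 4285 in healthy skin. Of 7 listed sebaceous gland genes 4 were measured, and they summed to 42.9 to 1935 in tumour LECs, against 3236 to 5189 in healthy skin. Fibroblast genes (7 of 7 measured) summed to 12972, 15882 and 1319 in tumour replicates 1, 2 and 3, against 8598 to 22880 in healthy skin, so replicate 3 was also the lowest in them. Macrophage genes (9 of 9) were highest in tumour replicate 2, at 5761, against 891.8 to 1313 in healthy skin.

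Markers of glands and of further cell types were counted in the same way. Of 10 luminal mammary genes 3 were above background on all 6 arrays and 4 on none, and the list summed to 250.9 to 429.5 in tumour LECs, against 319.7 to 398.6 in healthy skin. At an unadjusted limma p under 0.05, 1 of the 10 was lower (10%, against 4.28% of all genes) and 0 higher (against 3.22%). The lower one was Cdh1, with 5.93, 3.54 and 2.89 in tumour LECs, against 6.28, 6.56 and 6.53 in healthy skin (limma adjusted p = 0.682). Of 6 sweat gland genes 1, and of 5 genes of Merkel cells 0, were above background on all 6 arrays. Sweat gland genes summed to 64.4 to 90.4 in tumour LECs, against 51.2 to 74.2 in healthy skin. Merkel cell genes summed to 81.0 to 168.7 in tumour LECs, against 51.6 to 118.0 in healthy skin. Melanocyte genes, listed because MDA-MB-435 has been traced to a melanoma line, summed to 134.0 to 208.4 in tumour LECs, against 116.8 to 135.3 in healthy skin. Of these, 2 of 8 were above background on all 6 arrays (Sox10 and Pmel) and 3 on none. The highest sum, in tumour replicate 2, held Mitf at log2 6.71, against 3.18 and 2.31 in the other tumour arrays. In healthy skin Mitf lay between 4.01 and 5.17 (difference -0.49). Of the 8 differences 3 were negative and 5 positive, with 1 gene lower and 0 higher at an unadjusted limma p under 0.05. The lower one was Tyrp1 (difference -1.19, limma adjusted p = 0.729), above background on 0 of 3 tumour arrays and 2 of 3 healthy-skin arrays. The line is human and the arrays are for mouse genes, and how far its transcripts bind was not tested. Fat cell genes (6 of 7 measured) summed to 196.6 to 855.4 in tumour LECs, against 234.0 to 785.2 in healthy skin. Fabp4 was the highest of them on every array. Spiked hybridization controls, averaged over 18 probe sets, read 13.20, 12.78 and 13.36 in the tumour arrays, against 13.01, 12.35 and 12.33 in healthy skin.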

How the data were processed

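The authors deposited linear intensity values for 45101 probe sets on each of 6 arrays, and RMA is named per the submitters' processing notes. No source used here gives its software, probe set definitions or build. RMA is meant to equalise arrays and so to remove overall differences in RNA amount. Median log2 signals of the deposited values still lay between 3.25 and 3.45. The deposited intensities were converted to log2 without further normalization, after removal of 64 control probe sets. Among the remaining 45037, a single symbol was given for 34945, more than 1 for 932 and no symbol for 9160. All 47 keratin genes matched RefSeq by Entrez identifier under the same symbol. A gene was represented by its probe set with the highest mean over the 6 arrays, and sets ending in _x_at can bind related transcripts. The test was limma 3.58.1 under R 4.3.3 (lmFit, then eBayes with 2.82 prior degrees of freedom), two-sided, and p-values were adjusted by Benjamini-Hochberg over all probe sets. The code was tested on simulated data. Members, classes and lists were chosen with earlier results of these data known. The rule for names took keratins picked as examples of each class, any with an unadjusted p under 0.05 and, from each partner list, up to 4 genes with the smallest p. Further keratins were named as neighbours or for values already seen, as were Foxn1, Evpl, Sox10, Pmel, Mitf, Tyrp1, Cdh1, Fabp4 and Fabp5. Alternatives were a dim filter, quantile normalization, median centring, a replicate block, trend and robust options, array weights, other probe set choices, a pseudocount of 16 and each array left out. The number of arrays limits the precision.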

Additional observations from a re-analysis of the deposited data

How the results depend on the processing

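In limma, 0 keratins passed an adjusted p of 0.05 under any of the 15 alternatives, where the lowest adjusted p of a keratin lay between 0.09 and 0.554, and Krt1, Krt10 and Krt77 kept an unadjusted p under 0.05 in each. The count of lower keratins at that level, 3, became 5 with array weights, which added Krt15 and Krt27. The share of all genes that were lower rose too, from 4.28% to 7.15%. With each array left out the count of lower keratins ranged from 3 to 5, and that of higher ones from 0 to 1. Over all genes, 3.29% to 5.52% were then lower and 2.37% to 4.17% higher. Without tumour replicate 1 the added genes were Krt5 and Krt14, and without tumour replicate 2 Krt15, Krt17 and, on the higher side, Krt8, and without healthy-skin replicate 2 Krt25. The suprabasal median moved to -1.18 with the dim filter, which left 27 keratin genes. Of 120 family and class medians compared, 14 changed sign (the family median reached -0.09 without tumour replicate 1, the activated class -0.62), and of 277 differences of named genes 20 did. Those of Krt5, Krt14, Krt15, Krt17, Krt25 and Krt8 kept their sign in all they were computed for. Same-numbered samples of the groups did not deviate together (correlations 0.04, 0.10 and -0.01), and differently numbered ones gave -0.15 to 0.12. With 3 arrays per group this cannot exclude a pairing, which the labels do not state. The replicate block gave 0 keratin probe sets at an adjusted p under 0.05 and 3 lower keratins at an unadjusted one, where 4.82% of all genes were lower. Signals near background limit Krt1, Krt77, Krt8 and most hair keratins, and Krt10 in tumour replicates 2 and 3.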

Other observations

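Keratin-associated protein genes (Krtap followed by a digit), which encode the matrix between keratin filaments of the hair shaft, were looked at after their values were seen. Of 38 measured genes with 43 probe sets, 30 were below background on all 6 arrays and 4 were above it on all. Their median difference, tumour minus healthy skin, was 0.12, with 22 positive and 16 negative. At an unadjusted limma p under 0.05, 0 were lower (against 4.28% of all genes) and 1 higher (2.63%, against 3.22%). The higher one was Krtap31-1 (difference 0.78), below background on all arrays.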
